A study of Mus musculus with 6 samples.

Results

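Osteoclasts are the large multinucleated cells that resorb bone, and the 10 genes described here encode proteins of their formation and function: Acp5, Ctsk, Atp6v0d2, Dcstamp, Ocstamp, Calcr, Oscar, Nfatc1, Itgb3 and Tnfrsf11a. The rule that picks them is a list of gene symbols and uses no measured value, although earlier results of these data were known when the list was drawn up. All 10 were found among the 46333 genes of the files. The study sequenced RNA of mouse bone marrow cells from 2 groups of 3 libraries. The control libraries are labelled as a negative control. The CUMS libraries come from mice put through chronic unpredictable mild stress, a procedure of varied mild stressors used as a model of depression, over 4 weeks. The labels give no strain, sex or age, do not say how the marrow was taken from the bone, and do not say whether each library came from its own animal, so the p-values speak only of the spread among these libraries, which may be technical.

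Osteoclasts arise from cells of the monocyte and macrophage lineage. Colony-stimulating factor 1 acts through its receptor Csf1r to keep the precursors alive, and RANKL, the product of Tnfsf11, acts through RANK, the product of Tnfrsf11a, while the decoy receptor osteoprotegerin, the product of Tnfrsf11b, binds RANKL and holds it back. RANK signalling through Traf6, together with costimulation by Oscar and other receptors that signal through ITAM adaptors such as Fcer1g, turns on the transcription factors Fos and Nfatc1. Nfatc1 in turn drives the fusion genes Dcstamp, Ocstamp and Atp6v0d2 and the resorption genes Acp5 and Ctsk. Mature osteoclasts sit on bone surfaces, and several of these genes are also used elsewhere in marrow: Acp5 by macrophages, Nfatc1 by lymphocytes, and Itgb3 by megakaryocytes and platelets.

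The stretches before the transcription starts of 3 members are shown because they span the range of levels described below, from the abundant Acp5 through Ctsk to Oscar, which was at or near 0. They are the 250 bases before a RefSeq start (build GRCm38.p6), 5′ to 3′ along the gene's strand. None overlaps an annotated exon of GENCODE M21. Acp5 lies on the minus strand of chromosome 9 and has 3 starts in the table, and the window shown is 22131866-22132115. That of Ctsk is on the plus strand of chromosome 3 at 95498960-95499209, and that of Oscar on the minus strand of chromosome 7 at 3616158-3616407. Capitals mark matches, on either strand, to 4 short motifs that are bound by factors of the pathway: TGANTCA (AP-1, the dimers of Fos and Jun proteins), GGAAA (the core of NFAT sites), GAGGAA (PU.1, the product of Spi1) and CATGTG (an E-box bound by Mitf). The NFAT and PU.1 motifs can share letters.
Acp5: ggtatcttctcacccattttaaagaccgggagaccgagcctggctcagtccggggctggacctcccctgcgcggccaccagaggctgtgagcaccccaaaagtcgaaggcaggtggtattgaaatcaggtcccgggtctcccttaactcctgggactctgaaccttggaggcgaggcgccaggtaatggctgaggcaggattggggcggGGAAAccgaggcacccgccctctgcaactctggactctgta
Ctsk: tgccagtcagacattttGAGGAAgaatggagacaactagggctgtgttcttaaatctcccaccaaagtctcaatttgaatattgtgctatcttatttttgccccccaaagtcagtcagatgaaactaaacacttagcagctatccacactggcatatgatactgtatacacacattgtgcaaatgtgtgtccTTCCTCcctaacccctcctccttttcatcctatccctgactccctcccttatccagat
Oscar: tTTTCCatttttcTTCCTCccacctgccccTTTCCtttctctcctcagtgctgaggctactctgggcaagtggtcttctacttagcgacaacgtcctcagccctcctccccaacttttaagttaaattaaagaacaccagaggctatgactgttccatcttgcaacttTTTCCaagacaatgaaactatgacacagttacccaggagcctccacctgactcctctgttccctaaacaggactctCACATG
In these windows Acp5 held 1 match to the NFAT core, Ctsk 2 to the PU.1 motif, and Oscar 3 to the NFAT core, 1 to the PU.1 motif and 1 to the E-box. Starts of 5 of the 10 members were scanned (Acp5, Ctsk, Calcr, Oscar and Tnfrsf11a), 8 starts in all. Acp5 gave 3 of these, so the windows do not stand for separate genes. The Acp5 start with the window 22130599-22130848, not shown, held 2 matches to the NFAT core and 1 to the E-box. No start of the other members, Nfatc1 among them, was scanned, so the counts below do not cover them. The AP-1 motif matched in 0 of the 8 windows against 6.75% of all 32851 promoter windows of that length, the NFAT core in 5 of 8 against 55.6%, the PU.1 motif in 2 of 8 against 23.3% and the E-box in 2 of 8 against 12.3%. A match is a run of letters and not a measured site.

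The deposited values are FPKM, fragments scaled by transcript length and library size, so that levels of different genes can be set side by side. The files hold no counts, and the depth behind a value is unknown. Total FPKM per library ran from 561563 to 658595. A code in the column headers, whose meaning is not given, was 1 in replicate 1 of both groups and 2 in the other 4 libraries. Many genes differed between the codes: both libraries of code 1 lay below the other 4 for 23.1% of the 12302 tested genes and above them for 18.1%. The cause of this difference was not tested. A change is the CUMS mean less the control mean of log2(FPKM + 1), tested by limma in genes with at least 1 FPKM in 3 of the 6 libraries, with Benjamini-Hochberg adjustment over all of them. At an adjusted p under 0.05 the test called 132 genes (1.07% of those tested), 76 higher in CUMS (0.618%) and 56 lower (0.455%). Higher genes made up 57.6% of the genes called, and 39.2% when every library was set to 1 common total. With that scaling the median change of all tested genes moved from −0.0017 to −0.0356.

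No osteoclast gene passed the test between CUMS and control marrow. Of the 10 members 5 passed the filter on low values, and 0 of these 5 were called by limma, with 0 at an unadjusted p under 0.05 (the smallest was 0.555). Their log2 changes ran from −0.11 to 0.10, with a median of 0.03 against −0.0017 for all tested genes. The summed FPKM of the 10 members was 83.8 to 90.3 in controls and 83.1 to 90.3 in CUMS. Most of that sum was Acp5, at 49.3 to 66.1 FPKM over the libraries. The groups overlapped for all 10, while they did not overlap for 22.1% of all tested genes. With the replicate block, which called 7.8% of all tested genes, 0 of the 5 were called either. The panels of values by library show this overlap for each gene.

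**Figure D1:**
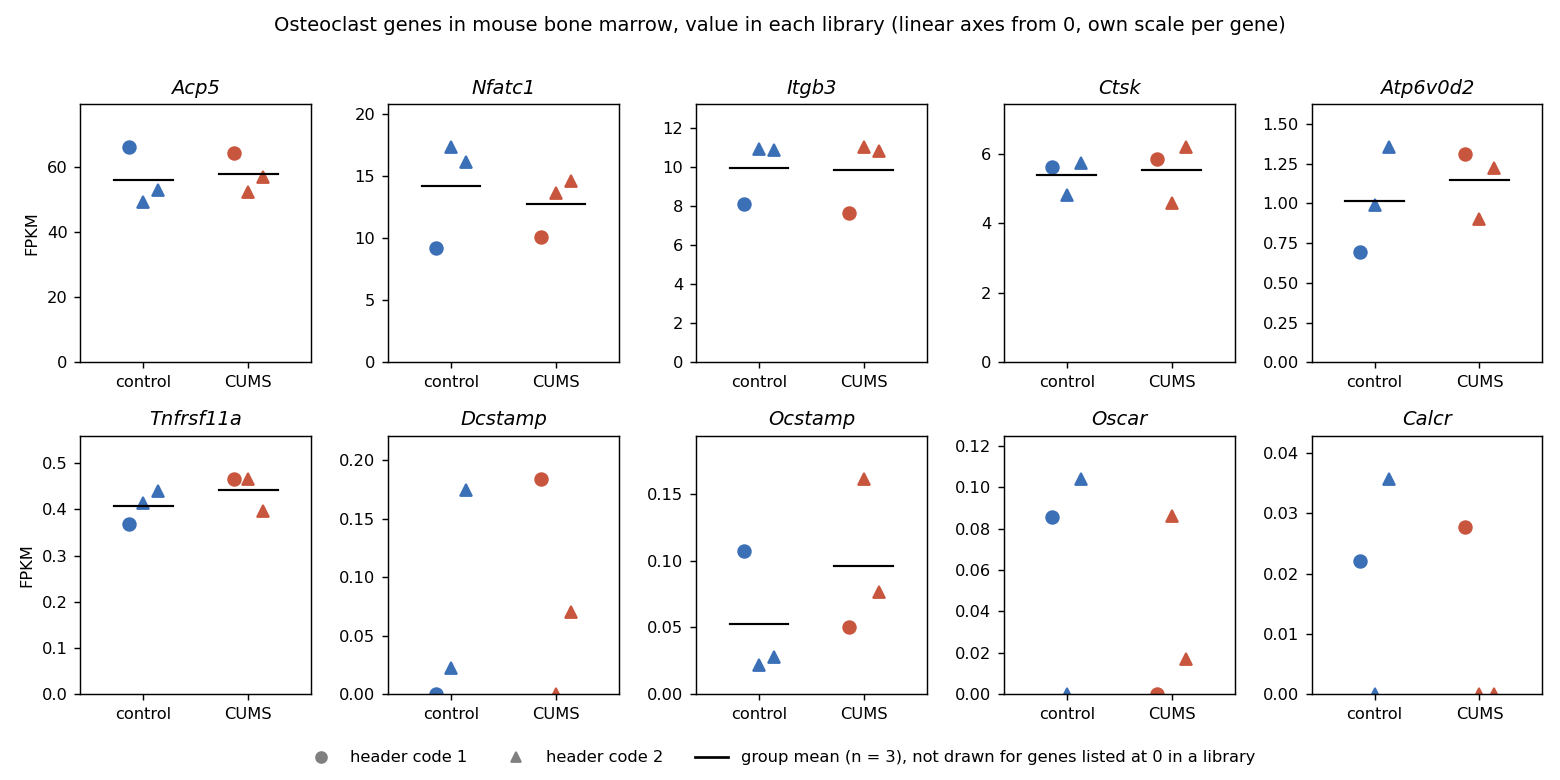
FPKM (vertical axes, linear, from 0) of each osteoclast gene in the 3 control and 3 CUMS libraries, with circles for header code 1, triangles for header code 2 and a bar at the group mean where no library is listed at 0. Control and CUMS points overlap in all 10 panels, and the circles sit lowest in both groups for Nfatc1 and Itgb3.

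Among the resorption genes Acp5, the tartrate-resistant acid phosphatase that stains osteoclasts (chromosome 9, 22126727 to 22135746, GRCm38), was the most abundant member. Its level was 66.1, 49.3 and 52.9 FPKM in control replicates 1, 2 and 3 and 64.5, 52.3 and 57.0 in CUMS replicates 1, 2 and 3. Both libraries of header code 1 were the highest, and within each code the groups lay close together. The means were 56.1 ± 8.83 and 57.9 ± 6.14 FPKM (SD, n = 3 each), a log2 change of 0.05 (SE 0.134, limma adjusted p = 0.906). The 95% interval of the change reached from a 0.834-fold to a 1.29-fold level on the FPKM + 1 scale. Of the 2030 exon bases of Acp5 in GENCODE M21, 137 are shared with 6530413G14Rik on the opposite strand, and whether the authors' values used strand is not given in the sources used here.

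Ctsk, cathepsin K, the protease that cuts bone collagen (chromosome 3, 95499210 to 95509387), was at 5.62, 4.82 and 5.75 FPKM in the controls and 5.85, 4.58 and 6.18 in CUMS. The lowest and the highest of the 6 values were both in CUMS. The means were 5.40 ± 0.501 and 5.54 ± 0.847 FPKM (SD, n = 3 each) and the log2 change was 0.03 (SE 0.131, limma adjusted p = 0.954), with a 95% interval of 0.825-fold to 1.26-fold. After scaling to the same total the log2 change was −0.00901, so no direction can be given. The level of Acp5 was 9.20 to 11.8 times that of Ctsk in the 6 libraries.

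The proton pump subunit Atp6v0d2 acts in acid secretion and in the fusion of osteoclast precursors (chromosome 4, 19876838 to 19922566). It lay just at the filter, with 0.696, 0.991 and 1.35 FPKM in the controls and 1.31, 0.900 and 1.22 in CUMS, 3 values under and 3 over 1 FPKM. Both the lowest and the highest value were in controls. The log2 change was 0.10 (SE 0.160, limma adjusted p = 0.831, 95% interval 0.827-fold to 1.39-fold), and −0.07 in the 4 libraries of header code 2.

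The other fusion genes, Dcstamp and Ocstamp, encode membrane proteins without which precursors stay mononuclear, and both were near 0. Dcstamp (chromosome 15, 39745930 to 39760938) was listed at 0 in control replicate 1, at 0.0224 and 0.175 FPKM in control replicates 2 and 3, at 0 in CUMS replicate 2, and at 0.184 and 0.0701 in CUMS replicates 1 and 3. Ocstamp (chromosome 2, 165395450 to 165400394) was at 0.107, 0.0218 and 0.0280 FPKM in the controls and 0.0502, 0.161 and 0.0767 in CUMS. In both genes the values of single libraries differed by more than the groups did. An exact two-sided permutation test over the libraries gave p = 0.8 for Dcstamp and 0.5 for Ocstamp, where 3 against 3 libraries cannot go below 0.1.

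The receptors were low as well. Tnfrsf11a, which encodes RANK (chromosome 1, 105780673 to 105849444), was at 0.369, 0.414 and 0.439 FPKM in the controls and 0.465, 0.466 and 0.398 in CUMS, the narrowest relative spread of the members under the filter. The means were 0.407 ± 0.0357 and 0.443 ± 0.0392 FPKM (SD, n = 3 each, exact two-sided permutation p = 0.3). CUMS replicates 1 and 2 lay above all controls and CUMS replicate 3 below 2 of the 3.

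Oscar, an immunoglobulin-like receptor that costimulates RANK signalling (chromosome 7, 3609813 to 3616157), was at 0.0857 FPKM, 0 and 0.104 in control replicates 1, 2 and 3 and at 0, 0.0860 and 0.0168 in CUMS replicates 1, 2 and 3. Calcr, the calcitonin receptor, a marker of mature osteoclasts (chromosome 6, 3685678 to 3764713), was listed at 0 in 3 of the 6 libraries and reached at most 0.0357 FPKM, in control replicate 3. The exact two-sided permutation p was 0.7 for both. After Benjamini-Hochberg adjustment over the 5 members under the filter, each of these exact tests had p = 0.8. An exact test of 3 against 3 libraries cannot give a p below 0.1, whatever the level of the gene. It could therefore call none of these 5 members, and no conclusion about a difference between the groups is drawn from it.

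Nfatc1, the transcription factor that acts as the main switch of osteoclast formation (chromosome 18, 80606205 to 80713071), had the largest SE of the log2 change among the tested members. It was at 9.17, 17.3 and 16.1 FPKM in control replicates 1, 2 and 3 and 10.1, 13.6 and 14.6 in CUMS replicates 1, 2 and 3. The libraries of header code 1 were the lowest of both groups. The means were 14.2 ± 4.39 and 12.8 ± 2.36 FPKM (SD, n = 3 each) and the log2 change was −0.11 (SE 0.236, limma adjusted p = 0.879, 95% interval 0.633-fold to 1.35-fold). The change went opposite ways in the header codes, 0.13 in the pair of code 1 and −0.23 in the 4 libraries of code 2. In code 2 the limma adjusted p was 0.0854, in a fit that called 17.7% of all tested genes (8.82% higher and 8.84% lower). The difference between the codes was not tested.

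Itgb3, the integrin β3 chain (chromosome 11, 104608000 to 104670476), pairs with αv (Itgav) in the sealing zone of osteoclasts and with αIIb (Itga2b) on platelets. It was at 8.10, 10.9 and 10.9 FPKM in the controls and 7.66, 11.0 and 10.8 in CUMS. As with Nfatc1, replicate 1 was the lowest in both groups, and the other 4 libraries lay within 10.8 to 11.0. The means were 9.96 ± 1.61 and 9.83 ± 1.88 FPKM (SD, n = 3 each), a log2 change of −0.02 (SE 0.167, limma adjusted p = 0.971, 95% interval 0.752-fold to 1.29-fold).

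Its partner chains differed in level. Itga2b had a mean of 11.0 ± 0.185 FPKM over the controls and 12.2 ± 0.484 over CUMS (SD, n = 3 each, limma adjusted p = 0.509), and Itgav at 2.24 ± 0.568 and 2.08 ± 0.345 (limma adjusted p = 0.902). The level of Itgb3 was 0.602 to 1.01 times that of Itga2b and 4.00 to 5.60 times that of Itgav in the 6 libraries. Of 8 tested megakaryocyte and platelet markers 0 were called, and their levels summed to 80.5 to 99.4 FPKM over the controls and 86.0 to 99.5 over CUMS. Gp9, a platelet glycoprotein, had a log2 change of 0.16 (limma adjusted p = 0.508). The part of these cells in the level of Itgb3 was not tested.

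**Figure D2:**
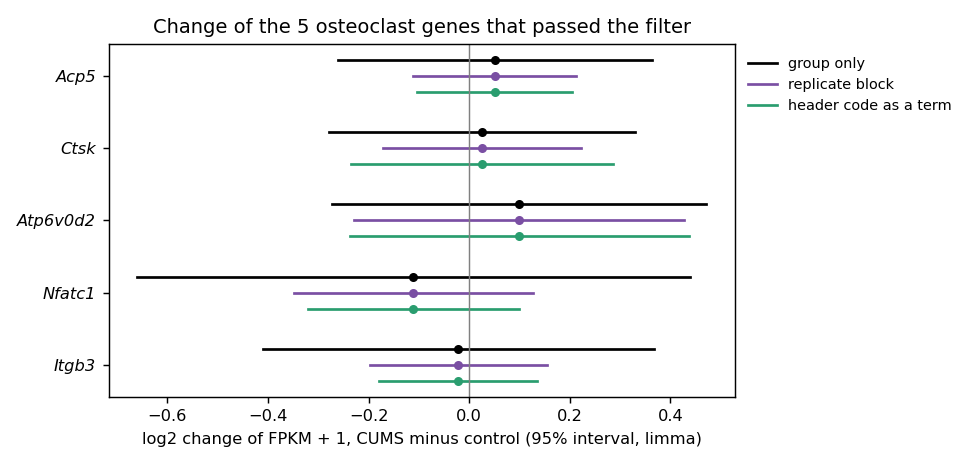
Log2 change of FPKM + 1, CUMS minus control, with its 95% interval from limma (horizontal axis) for the 5 osteoclast genes that passed the filter, fitted on group only, with the replicate block and with the header code as a term. All 15 intervals span 0, and for Nfatc1 the one on group only reaches from −0.66 to 0.44.

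Levels, as the mean FPKM over all 6 libraries, fell in the order Acp5 (57.0), Nfatc1 (13.5), Itgb3 (9.89), Ctsk (5.47), Atp6v0d2 (1.08), Tnfrsf11a (0.425), Dcstamp (0.0752), Ocstamp (0.0742), Oscar (0.0488) and Calcr (0.0143). Nfatc1 was above Itgb3 in every library, although the ranges of both genes over libraries overlapped. The other neighbours down to Tnfrsf11a and Dcstamp had ranges that did not overlap. Dcstamp, Ocstamp, Oscar and Calcr could not be ordered, since their ranges over the libraries overlapped. The level of Acp5 was 112 to 179 times that of Tnfrsf11a in the same library.

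The other genes of the pathway were read from 7 lists with 83 members, of which 76 were tested. By limma 1 of the 76 rose and 1 fell, and with the replicate block 5 rose and 6 fell (3.49% and 4.31% of all tested genes did so). With the header code as a term 7 rose and 14 fell, where that fit called 13.4% of all tested genes (6.06% higher and 7.31% lower), and 0 of the 5 tested osteoclast genes were called. The groups did not overlap for 8 of the 76 towards higher and 17 towards lower, against 10% and 12.1% of all tested genes. The median log2 change of the 76 was −0.09. The plot of named pathway genes gives the changes by list.

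Among ligands and decoys 0 of 4 tested members were called. Tnfsf11 was under the filter, at 0.184, 0.0805 and 0.240 FPKM in the controls and 0.0436, 0.124 and 0.181 in CUMS, and Tnfrsf11b was listed at 0 in all 6 libraries, so the ratio of RANKL to its decoy receptor cannot be given. Csf1, the ligand of Csf1r, was at 4.46 ± 0.736 and 4.60 ± 0.348 FPKM (SD, n = 3 each, limma adjusted p = 0.914). Il1b, a cytokine that promotes resorption, was at 52.1 ± 3.63 and 63.1 ± 3.50 FPKM and Tnfsf13b, a B cell survival factor, at 11.7 ± 1.54 and 9.06 ± 1.87 (limma adjusted p = 0.226 and 0.347). The groups did not overlap for Il1b, and with the header code as a term it was called as higher (limma adjusted p = 0.0228). Tnf, which acts together with RANKL, had a log2 change of 0.06 (limma adjusted p = 0.875), and −0.09 in the libraries of header code 2.

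Of 16 tested genes of receptor signalling Csf1r alone was called by limma, as were 1.07% of all tested genes. Csf1r, the receptor that osteoclast precursors share with monocytes and macrophages, fell from 49.9, 45.0 and 45.3 FPKM in the controls to 32.9, 27.6 and 29.7 in CUMS, with all CUMS libraries below all controls. The log2 change was −0.62 (SE 0.0995, limma adjusted p = 0.0338). The call was lost in each fit that left out 1 library except the one without control replicate 1, with adjusted p up to 0.194, and with no filter on low values (adjusted p = 0.0941). Traf6, the adaptor of RANK, was at 5.79 ± 0.966 and 6.54 ± 0.0748 FPKM (SD, n = 3 each, limma adjusted p = 0.599). Nfkb2 and Relb, of the noncanonical NF-κB branch, had log2 changes of −0.31 and −0.29, and Fcer1g, an adaptor of costimulatory receptors, one of −0.28 (limma adjusted p = 0.169, 0.271 and 0.274). With the header code as a term 4 of the 16 fell and 0 rose, Fcer1g and Nfkb2 among them (limma adjusted p = 0.0198 and 0.0299). That fit called 7.31% of all tested genes as lower and 6.06% as higher.

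Of 8 tested transcription factors 1 rose by limma, as did 0.618% of all tested genes. Fos, the AP-1 subunit that precedes Nfatc1 in the pathway and is also an immediate-early gene of many cell types, was at 160, 187 and 177 FPKM in the controls and 328, 334 and 324 in CUMS. The groups lay far apart, with a log2 change of 0.91 (SE 0.0967, limma adjusted p = 0.00887). The call was lost on leaving out control replicate 3 or either of CUMS replicates 2 and 3 (adjusted p 0.0735 to 0.0752). Junb, another AP-1 subunit, was at 185 ± 8.10 and 264 ± 47.0 FPKM (SD, n = 3 each, limma adjusted p = 0.138, with the replicate block 0.0228). Spi1 and Myc had log2 changes of −0.31 and 0.31 (limma adjusted p = 0.319 and 0.286, with the header code as a term 0.0389 and 0.0372).

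The genes that restrain osteoclast formation were mixed. By limma 0 of 9 were called (1.07% of all tested genes were). With the replicate block 3 rose and 1 fell (3.49% and 4.31% of all tested genes did so). Id2, an inhibitor of helix-loop-helix factors, was at 32.3 ± 6.96 and 50.7 ± 7.66 FPKM (SD, n = 3 each, limma adjusted p = 0.126, with the block 0.00561, without control replicate 1 0.0375). Tnfaip3, a brake on NF-κB, was at 5.74 ± 0.651 and 8.99 ± 1.23 FPKM (limma adjusted p = 0.0977, with the block 0.0128). The repressor Bcl6 had a log2 change of −0.43 (limma adjusted p = 0.243, with the block 0.0391). Irf8, which represses Nfatc1 in precursors, was at 74.8, 74.6 and 72.7 FPKM in the controls and 64.7, 62.0 and 58.2 in CUMS, groups that did not overlap, with a log2 change of −0.26 (limma adjusted p = 0.202, with the block 0.0589, with the header code as a term 0.0281).

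Partners in cell fusion gave 0 calls among 8. Cd9, a tetraspanin, and Sirpa, a receptor of Cd47, had log2 changes of −0.17 and −0.23, and Adam8 and Cd44 of 0.06 and 0.04 (limma adjusted p = 0.511, 0.369, 0.875 and 0.882). With the header code as a term Sirpa was called as lower (limma adjusted p = 0.0445).

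For acid secretion and resorption 0 of 20 were called by limma (1.07% of all tested genes were). With the replicate block 3 fell and 0 rose (4.31% and 3.49% of all tested genes did so). Tcirg1, the a3 subunit of the osteoclast proton pump, was at 64.2, 64.9 and 64.5 FPKM in the controls and 52.8, 49.0 and 48.2 in CUMS. All CUMS libraries lay below the controls, by a log2 change of −0.36 (limma adjusted p = 0.0933, with the block 0.0275). Mmp9, a gelatinase of osteoclasts that neutrophils also store in granules, was at 412 ± 37.5 and 291 ± 11.0 FPKM (SD, n = 3 each, limma adjusted p = 0.0776, with the block 0.0240, without control replicate 1 0.0257). Atp6v1b2, another pump subunit, and Mmp14, a membrane-bound metalloproteinase, had log2 changes of −0.24 and 0.25 (limma adjusted p = 0.237 and 0.321), and Atp6v1b2 was called as lower with the header code as a term (limma adjusted p = 0.0355).

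Among 11 integrin and podosome partners 0 were called by limma and 1 fell with the block (4.31% of all tested genes did). Itgb5, the β5 chain, another partner of αv, was at 6.35, 5.69 and 6.43 FPKM in the controls and 4.05, 3.68 and 3.03 in CUMS, without overlap (log2 change −0.65, SE 0.120, limma adjusted p = 0.0593, with the block 0.0180). Pxn, Was and Vcl, which act in adhesion and the actin core of podosomes, had log2 changes of −0.29, −0.17 and 0.15 (limma adjusted p = 0.251, 0.423 and 0.582), and Pxn was called as lower with the header code as a term (limma adjusted p = 0.0377). The block called 0 of the 5 tested osteoclast genes.

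**Figure D3:**
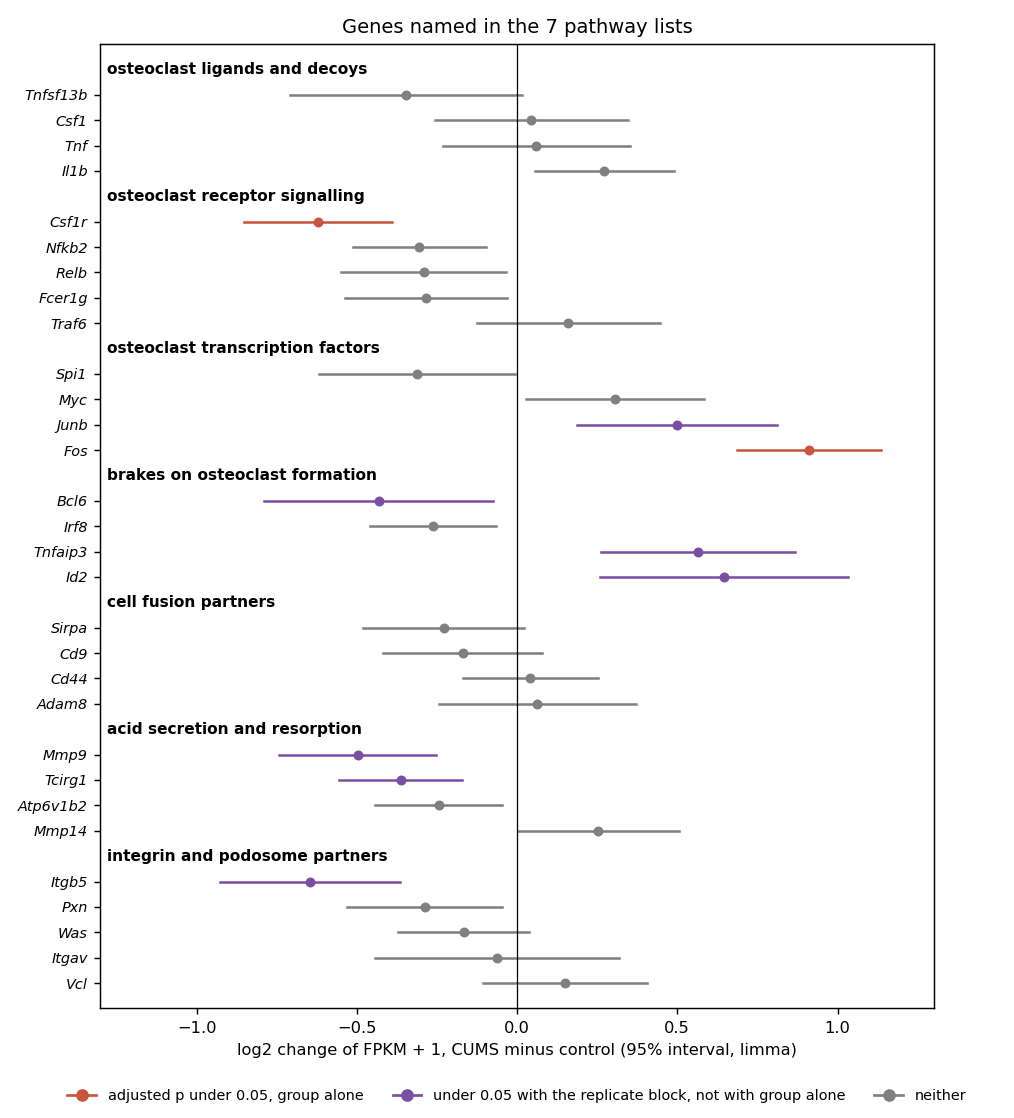
Log2 change of FPKM + 1, CUMS minus control, with its 95% interval from limma (horizontal axis) for the named genes of the 7 pathway lists. Csf1r (−0.62) and Fos (0.91) passed an adjusted p of 0.05, and 7 further named genes (Junb, Bcl6, Tnfaip3, Id2, Tcirg1, Mmp9 and Itgb5) did so with the replicate block and not with group alone.

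Markers of other cells that the marrow could hold were read beside the osteoclast genes. In whole marrow fewer cells of a type and less RNA per cell cannot be told apart. Of 10 tested macrophage markers 0 were called by limma and 5 fell with the block. The block called 4.31% of all tested genes as lower and 3.49% as higher. Their summed level ran from 246 to 306 FPKM over the controls and from 201 to 225 over CUMS. Mrc1 and C1qc had log2 changes of −0.54 and −0.58 (limma adjusted p = 0.0630 and 0.0997, with the block 0.0183 and 0.0361). Acp5 is also a macrophage gene, and its log2 change was 0.05. The part of macrophages in the level of Acp5 was not tested. Of 8 monocyte markers 1 fell by limma (0.455% of all tested genes did), Cx3cr1 (log2 change −1.10, adjusted p = 0.00817). The call was lost on leaving out control replicate 3 or either of CUMS replicates 2 and 3 (adjusted p 0.0507 to 0.0642). With the block 4 fell, Ms4a4c among them (log2 change −0.62, adjusted p = 0.0171, and 0.0434 without the block and control replicate 1), and 1 rose. The log2 changes of the 8 monocyte markers were mixed, 5 towards lower and 3 towards higher. The summed FPKM of the monocyte list, most of it from a single gene, was 876 to 1104 and 910 to 982.

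Of 11 tested osteoblast and stromal markers Col1a2, a chain of type I collagen, alone rose by limma (from 10.1 ± 0.833 to 16.1 ± 0.425 FPKM, SD, n = 3 each, adjusted p = 0.0293). It lost the call after scaling to the same total (adjusted p = 0.0811), with no filter (0.0850), and in each fit without 1 library but control replicate 1 (up to 0.178). With the block, which called 3.49% of all tested genes as higher, 3 rose, among them Cxcl12 (log2 change 0.34, adjusted p = 0.0320). The summed FPKM of this list was 110 to 119 in controls and 142 to 150 in CUMS. The osteocyte markers were all under the filter, with a sum of 0.418 to 0.531 and 0.254 to 0.581 FPKM and Sost listed at 0 in every library. The part of these cells in the results was not tested.

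The remaining marker lists gave 0 calls by limma. B cell markers summed to 504 to 586 FPKM over the controls and 428 to 471 over CUMS. Of these, 2 of 8 fell with the block, Cd79a among them (log2 change −0.32, adjusted p = 0.0360), against 4.31% of all tested genes. T and NK cell markers summed to 75.6 to 97.4 and 87.4 to 102.5 FPKM, with Cd8a and Nkg7 at log2 changes of 0.24 and 0.21. Neutrophil markers summed to 39595 to 56158 and 42757 to 44257 FPKM, with Ly6g at −0.20 and Mpo at 0.27 (with the header code as a term, limma adjusted p = 0.0453 for Mpo). Erythroid markers summed to 162725 to 193429 and 189143 to 231651 FPKM, with Hba-a2 at a log2 change of 0.28. Of 6 endothelial markers 2 were tested, Cdh5 and Pecam1, at −0.17 and −0.05, and the list summed to 15.8 to 17.3 and 14.8 to 16.5 FPKM.

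**Figure D4:**
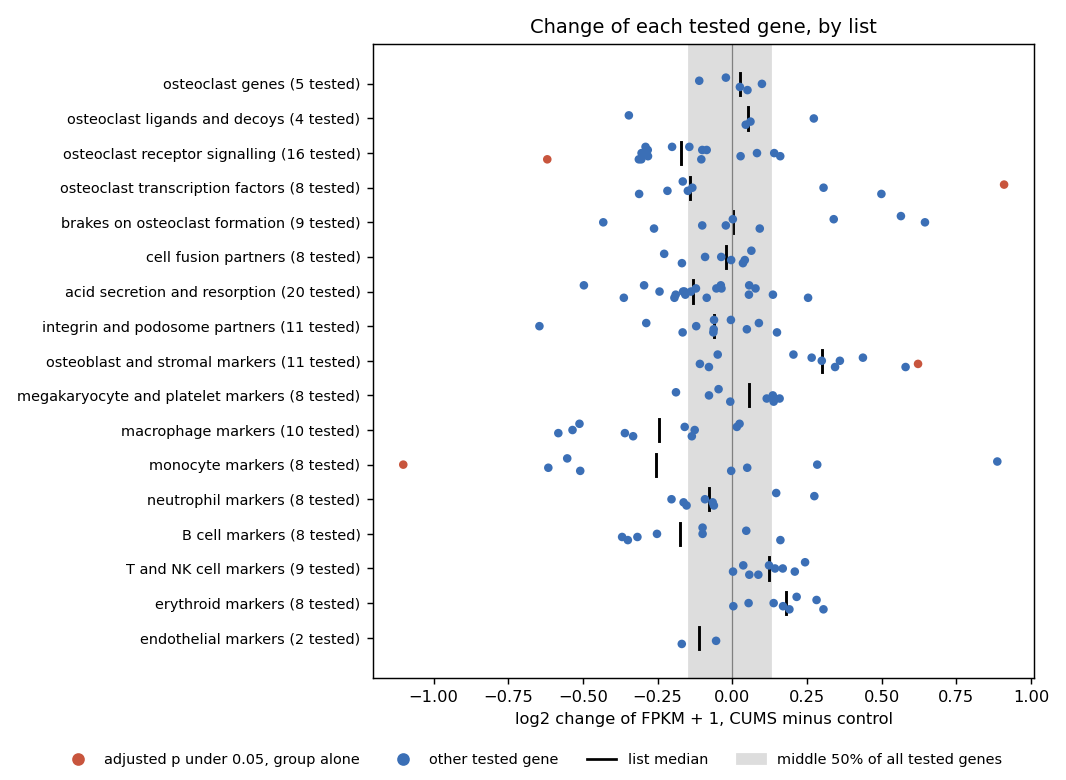
Log2 change of FPKM + 1, CUMS minus control (horizontal axis), of each tested gene by list, with a black bar at the list median and a grey band over the middle 50% of all tested genes (−0.15 to 0.13). The points of the 5 tested osteoclast genes lie between −0.11 and 0.10, inside the band, which describes single genes and is no measure for the medians.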

How the data were processed

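RNA of mouse bone marrow cells was sequenced by the authors with paired reads of 151 bp, per the labels' protocols. HISAT2 2.1, featureCounts 1.6.4, DESeq2 2.11.40.6, cutadapt 1.16.5 and bcl2fastq 2.19 and the mm10 build are listed in the submitters' processing notes; which of them made the values is not given in the sources used here. The deposited values are FPKM by their form (not whole, with unequal totals); no header names the unit. Low values did not fall in steps of whole reads, so counts were not recovered and precision rests on the spread of 3 libraries per group. The log2 values are computed here from the deposited FPKM.

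The 12302 genes that reached 1 FPKM in 3 or more libraries were fitted with limma-trend on log2(FPKM + 1), group as the only term (R 4.3.3, limma 3.58.1; Python 3.11.15, pandas 2.3.3, matplotlib 3.10.9), adjusted p under 0.05. Members under the filter were compared by exact permutation. The fit was tested on simulated data. Members, gene lists and motifs were chosen with earlier results of these data known. Named were all members, up to 4 genes of smallest p in each pathway list and 2 in each marker list, and always Tnfsf11, Tnfrsf11b, Csf1, Csf1r, Traf6, Irf8, Mmp9, Tcirg1, Itgav and Itga2b; some genes that the rule names are not reported here. Samples were grouped by title. Across genes, libraries of the same replicate number had correlated deviations from their group means (r = 0.689, 0.452 and 0.363), and so did replicates 2 and 3 when crossed (r = 0.459 and 0.362); no source names pairs. Replicate 1 crossed with replicates 2 and 3 of the other group gave r from −0.602 to −0.479. By the rule used (each same-number r above 0.1) the block is given beside results whose calls it changes. The rule cannot tell paired replicates from the header code, which also sets replicate 1 apart. Gene positions are RefSeq GRCm38.p6. Alternatives changed the pseudocount, filter, scaling, terms and libraries.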

Additional observations from a re-analysis of the deposited data

How the results depend on the processing

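The 5 tested osteoclast genes gave 0 calls under all 17 alternatives that could test them (84 tests, smallest limma adjusted p 0.0854, Nfatc1 in the libraries of header code 2 only), and with no filter 0 of 10. Their median log2 change, 0.03 in the main fit, moved by less than the spread between libraries within groups (0.17) under every alternative. That spread is wider than the change itself, so it is a loose measure. When 1 library was left out the median ran from −0.05 to 0.12, on both sides of 0. The number of all genes called depended on the setting: 132 became 43 with no filter on low values, 199 with quantile normalization, 959 with the replicate block, 1645 with the header code as a term, 2173 in the libraries of code 2 only, and 17 to 262 when 1 library was left out. The block changed no call of a tested osteoclast gene. Signs of small changes turned: Ctsk was −0.00901 after scaling to the same total, and in code 2 only Atp6v0d2 was −0.0741, Itgb3 0.0032, Csf1 −0.0073 and Tnf −0.0889. Leaving out 1 library gave ranges of −0.0348 to 0.17 for Acp5, −0.0472 to 0.14 for Ctsk, −0.0183 to 0.22 for Atp6v0d2, −0.38 to 0.0455 for Nfatc1, −0.15 to 0.13 for Itgb3, −0.0600 to 0.14 for Csf1, −0.0526 to 0.14 for Tnf, −0.0076 to 0.0922 for Cd44, −0.0430 to 0.16 for Adam8 and −0.21 to 0.0463 for Itgav. The cause was not tested. The planned ratio of Tnfsf11 to Tnfrsf11b was not run because Tnfrsf11b is listed at 0. No fold or interval is given for members near 0, whose depth is unknown.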
